A study of Mus musculus with 8 samples.

Results

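CatSper is the calcium channel of the sperm flagellum, and the genes of its subunits were followed here in germ cells of young males with a conditional deletion of *Mgat2*. The 10 genes were chosen by name in the deposited table of 55357 genes: *Catsper1*, *Catsper2*, *Catsper3*, *Catsper4*, *Catsperb*, *Catsperd*, *Catspere1*, *Catspere2*, *Catsperg1* and *Catsperg2*. RNA-seq was done on germ cells from testes of C57BL/6 males at 15 days after birth, with 4 *Mgat2*[F/F] males as control and 4 *Mgat2*[F/F]:*Stra8*-iCre males as conditional knockout (cKO). All 8 mice carried floxed *Mgat2*, the gene of a GlcNAc-transferase that makes complex N-glycans, and the cKO mice also carried an iCre transgene under the *Stra8* promoter, which acts from spermatogonia on. The control mice carried no Cre. Each mouse gave 1 polyA library without strand information, and values per sample are listed from replicate 1 to replicate 4, as numbered in the sample titles. Total expected counts per library ran from 12584726 to 15907505.

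The channel opens at alkaline pH and lets calcium into the flagellum, which is needed for the vigorous beating called hyperactivation. *Catsper1* to *Catsper4* encode the pore-forming subunits, of which all are required for a working channel. *Catsperb*, *Catsperg1*, *Catsperg2*, *Catsperd*, *Catspere1* and *Catspere2* encode auxiliary membrane proteins with large extracellular parts, the beta, gamma, delta and epsilon subunits. The mouse carries a pair of genes for the gamma and for the epsilon subunit, the copies of each pair on the same chromosome. Sperm are not formed in the mouse at 15 days, when the most advanced germ cells are spermatocytes, so the values below are of transcripts long before any channel works.

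The gamma and epsilon pairs are near copies, and their sequences are shown because reads that fit both copies had to be divided between them. *Catsperg1* (ENSMUSG00000049676) lies on chromosome 7 from 28880746 to 28913460 and *Catsperg2* (ENSMUSG00000049123) from 29396644 to 29426457, both on the reverse strand of GRCm39. *Catspere1* (ENSMUSG00000102483) lies on the forward strand of chromosome 1 from 177635997 to 177790244, and *Catspere2* (ENSMUSG00000091476) follows it from 177810989 to 178000271. In the GENCODE transcripts, 3312 of 3435 aligned coding bases of the gamma pair were identical (96.4%), and 2676 of 2865 of the epsilon pair (93.4%). Stretches of 150 bases, the length of a read, were found in the other copy for 10.5% of those in the canonical *Catsperg1* transcript and for 9.9% of those in *Catsperg2*. For *Catspere1* and *Catspere2* these shares were 4.0% and 3.9%. The shares are of single stretches, while reads came in pairs, for which no share was computed. The following 60 coding bases, from exon 2 of the gamma pair (chr7:28910226-28910285 and chr7:29424781-29424840, reverse strand) and exon 4 of the epsilon pair (chr1:177653709-177653768 and chr1:177843483-177843542, forward strand), have close to the average density of differences, and capitals mark the bases at which the copies differ.
Catsperg1: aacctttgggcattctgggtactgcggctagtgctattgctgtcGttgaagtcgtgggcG
Catsperg2: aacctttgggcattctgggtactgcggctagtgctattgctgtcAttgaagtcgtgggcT
Catspere1: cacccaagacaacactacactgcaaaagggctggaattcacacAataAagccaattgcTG
Catspere2: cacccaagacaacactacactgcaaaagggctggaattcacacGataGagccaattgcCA
Within these 60 bases the copies differ at 2 bases in the gamma pair and at 4 bases in the epsilon pair. Reads of 150 bases cover more than such a stretch. Because some reads still fit both copies, values of a single copy are given together with the value of the pair.

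Of the pore-forming subunits, only *Catsper2* was expressed at a level that could be compared. *Catsper1* (chromosome 19, 5385769 to 5394308) and *Catsper4* (chromosome 4, 133939279 to 133954733) had 0 counts in all 8 libraries, which allows up to 3 counts in each, or 0.189 to 0.238 CPM, the counts scaled to a common library total. This limit covers counting error only. *Catsper3* (chromosome 13, 55932373 to 55956830) had 0, 0, 0 and 2 counts in the controls, and 0, 1, 1 and 7 counts in the cKO samples. Its highest level was 0.78 TPM, in cKO replicate 4, where TPM is an abundance scaled within each library for transcript length and depth, and no fold change is given because 7 of the 8 libraries were at or under 3 counts. These 3 genes did not reach a TPM of 1 in any sample and were not tested. The other 7 members each reached a TPM of 1 in a control and also in a cKO sample, and they were tested among 20187 genes.

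*Catsper2* (ENSMUSG00000033486), on the reverse strand of chromosome 2 from 121223107 to 121245096, had 22.8, 14.6, 17.7 and 10.4 TPM in the controls. In the cKO samples it had 10.2, 8.06, 7.91 and 14.2 TPM. The genotypes overlapped, because cKO replicate 4 was above control replicate 4 and close to control replicate 2. The log2 fold change, cKO over control, was -0.76 ± 0.25 (SE, n = 4 per genotype, adjusted p = 0.426, edgeR's quasi-likelihood test). This was the smallest difference among the 7 genes tested. *Catsper2* shares 179 of the 2309 bases of its canonical transcript (7.8%) with exons of *Pdia3* on the opposite strand, and reads from those bases could not be told apart in libraries without strand.

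**Figure D1:**
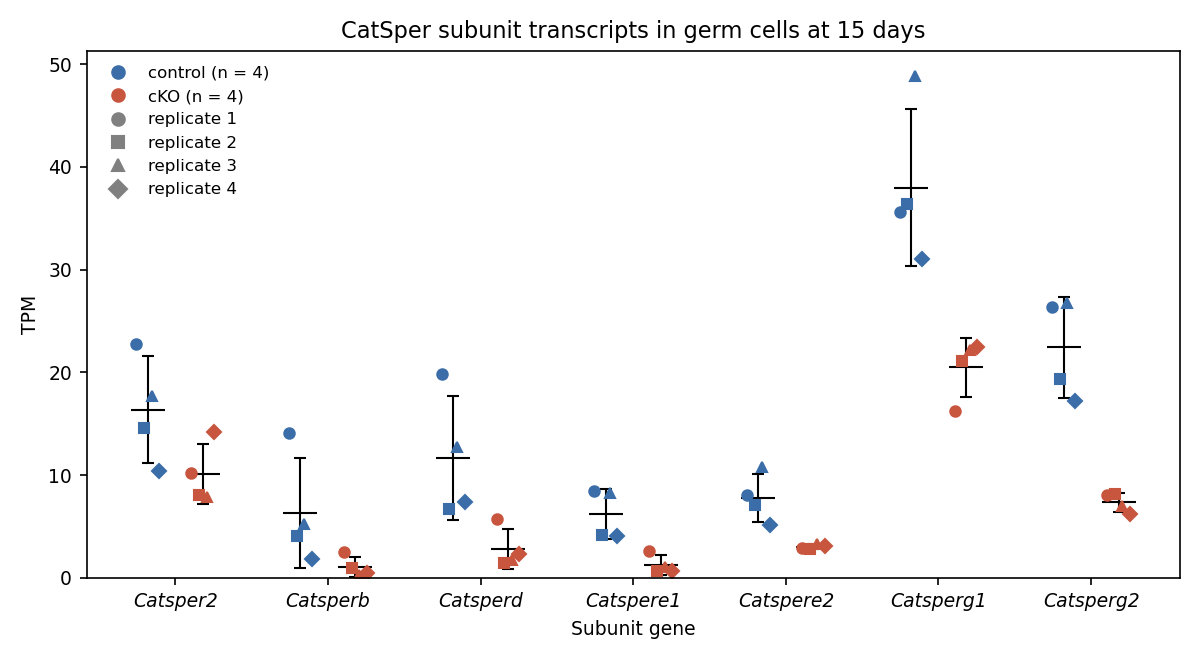
TPM of the 7 tested CatSper subunit genes (x axis) in each sample, with control in blue, cKO in red and 1 symbol per replicate number; the horizontal bars are group means and the error bars SD (n = 4). The genotypes are apart for *Catsperd*, *Catspere1*, *Catspere2*, *Catsperg1* and *Catsperg2* and overlap for *Catsper2* and *Catsperb*.

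The gamma subunit had the most abundant transcripts of the channel, and it held the only member that edgeR called lower after adjustment over all genes. *Catsperg2* had 26.4, 19.3, 26.8 and 17.2 TPM in the controls, and 8.05, 8.17, 6.97 and 6.23 TPM in the cKO samples. The highest cKO sample was far below the lowest control. The mean fell from 22.4 ± 4.88 to 7.36 ± 0.92 TPM (SD, n = 4), and the log2 fold change was -1.60 ± 0.20 (SE, adjusted p = 0.0346, edgeR), or 3.02-fold lower. Adjusted p rose above 0.05 in 5 of the 8 fits that left out 1 sample: it was 0.0622 without control replicate 2, 0.217 without control replicate 3, 0.172 without cKO replicate 2, 0.259 without cKO replicate 3 and 0.202 without cKO replicate 4 (edgeR), with log2 fold changes of -1.72 to -1.47 over all 8.

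*Catsperg1* was the most abundant subunit transcript in every sample. It had 35.6, 36.4, 48.9 and 31.1 TPM in the controls, and 16.3, 21.1, 22.1 and 22.5 TPM in the cKO samples. The genotypes did not overlap, although the control level was highest in replicate 3 and the cKO level lowest in replicate 1. Its log2 fold change was -1.005 ± 0.16 (SE, adjusted p = 0.0812, edgeR), 2.01-fold lower, and the adjusted p was 0.0166 when control replicate 4 was left out and 0.0974 to 0.404 when any other sample was.

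Because the copies share reads, the counts of the gamma pair were also summed and fitted as 1 gene, a choice made after seeing the data. The pair had 1688, 1501, 2190 and 1030 counts in the controls, and 649, 769, 646 and 658 counts in the cKO samples. This was 107 ± 24.2 CPM in control and 46.2 ± 2.68 CPM in cKO (SD, n = 4), without overlap. The log2 fold change of the pair was -1.22 ± 0.14 (SE, adjusted p = 0.0305, edgeR). The cKO samples differed little among themselves. Control replicate 4 had the fewest counts of the pair and was the shallowest library. It was also the lowest control in CPM, which is scaled for depth, at 48.0 for *Catsperg1* and 32.4 for *Catsperg2*.

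Within the gamma pair, *Catsperg2* took a smaller part of the TPM in cKO. Its share was 42.6%, 34.7%, 35.4% and 35.6% in the controls, and 33.1%, 27.9%, 23.9% and 21.7% in the cKO samples. All cKO samples were below all control samples, by a narrow gap between cKO replicate 1 and control replicate 2. The mean difference was -10.4 percentage points (exact permutation test, two-sided p = 0.0286, the smallest that 4 against 4 samples allow; 0.0381 adjusted over the 4 such tests made here). On expected counts, which are not scaled by transcript length, the difference was -9.21 points and the genotypes overlapped (exact permutation p = 0.114). Replicate 1 had the highest share in both genotypes, and the numbers depend on how the shared reads were divided.

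The epsilon pair was less abundant and lower in cKO in both copies. *Catspere1* had 8.49, 4.14, 8.22 and 4.03 TPM in the controls, and 2.65, 0.70, 1.05 and 0.64 TPM in the cKO samples. The cKO samples were all lower than the controls, with replicate 1 the nearest to them. The log2 fold change was -2.28 ± 0.52 (SE, adjusted p = 0.313, edgeR), 4.85-fold lower, and without cKO replicate 1 it was -2.96 with an adjusted p of 0.0409. When any other sample was left out, the adjusted p lay between 0.173 and 0.808 (edgeR).

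*Catspere2* had 8.06, 7.12, 10.8 and 5.16 TPM in the controls, and 2.90, 2.83, 3.33 and 3.07 TPM in the cKO samples. The cKO levels were almost equal and below all controls. Its log2 fold change was -1.43 ± 0.22 (SE, adjusted p = 0.0535, edgeR), 2.69-fold lower. The adjusted p was 0.0318 without control replicate 1 and 0.0113 without control replicate 4, and lay between 0.058 and 0.34 when any other sample was left out (edgeR).

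Summed as 1 gene, the epsilon pair had 491, 331, 602 and 226 counts in the controls, and 167, 103, 117 and 95 counts in the cKO samples. The level was 27.6 ± 9.48 CPM in control and 8.18 ± 2.10 CPM in cKO (SD, n = 4). The log2 fold change of the pair was -1.75 ± 0.27 (SE, adjusted p = 0.0666, edgeR). *Catspere1* made up 51.3%, 36.8%, 43.2% and 43.9% of the TPM of the pair in the controls, and 47.8%, 19.8%, 23.97% and 17.2% in the cKO samples. The genotypes overlapped through cKO replicate 1, and the mean difference of -16.6 percentage points did not pass the test (exact permutation p = 0.114, two-sided).

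**Figure D2:**
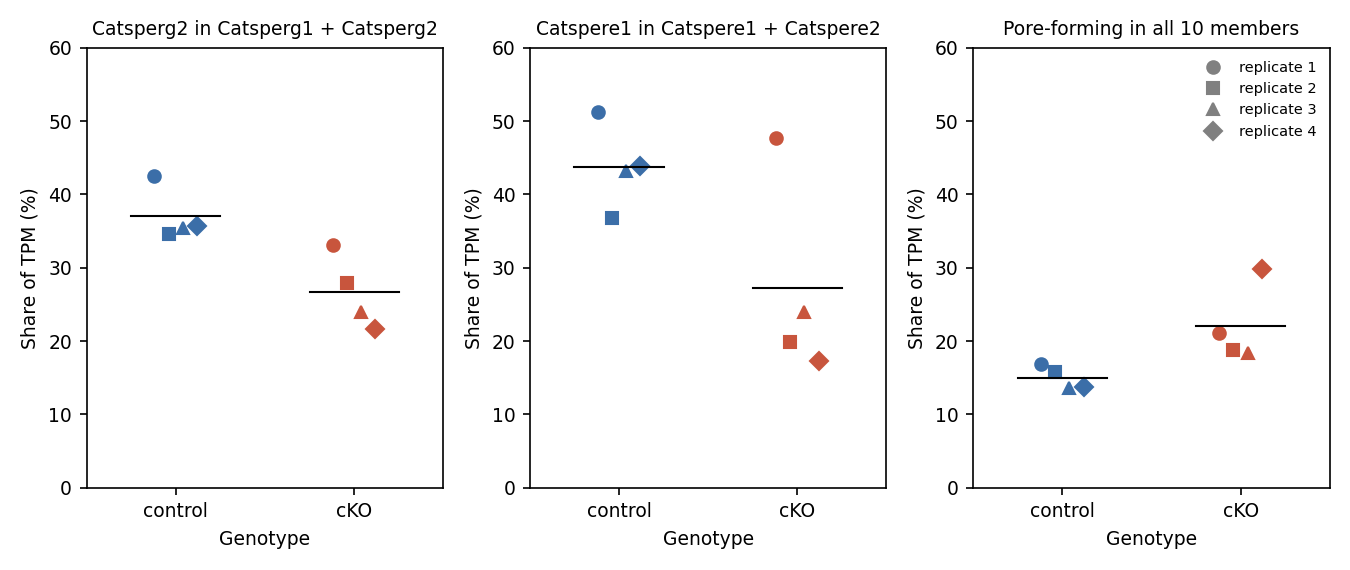
Share of TPM (%) taken by *Catsperg2* within the gamma pair, by *Catspere1* within the epsilon pair, and by the pore-forming genes among all 10 members, per sample in control (blue) and cKO (red), with 1 symbol per replicate number and the mean as a line. The *Catsperg2* share is lower in all 4 cKO samples (21.7% to 33.1%) than in any control, the *Catspere1* share overlaps, and the pore-forming share is higher in all 4 cKO samples.

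*Catsperd* (ENSMUSG00000040828, chromosome 17, 56935119 to 56971456) encodes the delta subunit, which the channel needs for assembly in the flagellum. It had 19.8, 6.69, 12.8 and 7.41 TPM in the controls, and 5.68, 1.42, 1.77 and 2.32 TPM in the cKO samples. The genotypes did not overlap, but cKO replicate 1 came close to control replicate 2. The log2 fold change was -1.96 ± 0.60 (SE, adjusted p = 0.4365, edgeR), 3.89-fold lower. It was -1.50 without control replicate 1 and -2.66 without cKO replicate 1, and no fit that left out 1 sample called it (adjusted p of 0.142 to 0.81, edgeR).

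*Catsperb* (ENSMUSG00000047014, chromosome 12, 101370912 to 101592268), the gene of the beta subunit, was the most variable member. It had 14.1, 4.10, 5.28 and 1.87 TPM in the controls, and 2.50, 0.94, 0.31 and 0.44 TPM in the cKO samples. Control replicate 4 was below cKO replicate 1, so the genotypes overlapped. Its log2 fold change was -2.28 ± 0.88 (SE, adjusted p = 0.529, edgeR), as large as that of *Catspere1* but with a larger error. Leaving out control replicate 1 gave -1.58 and leaving out cKO replicate 1 gave -3.30, and no fit that left out 1 sample called it (adjusted p of 0.238 to 0.81, edgeR).

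Across the 7 tested members, the log2 fold changes ran from -2.28 to -0.76 with a median of -1.60, against a median of 0.007 over all genes tested, of which 48.6% were lower in cKO. EdgeR called 1 of the 7 lower, and 0.0396% of all 20187 genes (8 genes). At an unadjusted p under 0.05, all 7 tested members were lower, against 6.28% of all genes tested. In normalized CPM, the highest cKO sample lay under the lowest control for 5 of the 7, and for 3.03% of all genes tested.

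DESeq2, the tool of the study, called 5 of the 7 lower, against 1.75% of the 16233 genes to which it gave an adjusted p. The 5 were *Catsperg2* (adjusted p = 6.41e-10), *Catspere2* (3.74e-06), *Catsperg1* (6.24e-06), *Catspere1* (0.000295) and *Catsperd* (0.0109), and it did not call *Catsper2* (0.108) or *Catsperb* (0.184). These 5 are also on the list of changed genes that the study drew from these samples, so their presence there is not independent evidence. With replicate 1 of both genotypes left out, a choice made after seeing the data, edgeR called 5 of the 7 lower, against 3.86% of 19577 genes. Those were *Catspere1* (log2 fold change -2.76), *Catsperb* (-2.62), *Catsperd* (-2.21), *Catsperg2* (-1.58) and *Catspere2* (-1.415), while *Catsperg1* had an adjusted p of 0.117 and *Catsper2* of 0.122 (edgeR).

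**Figure D3:**
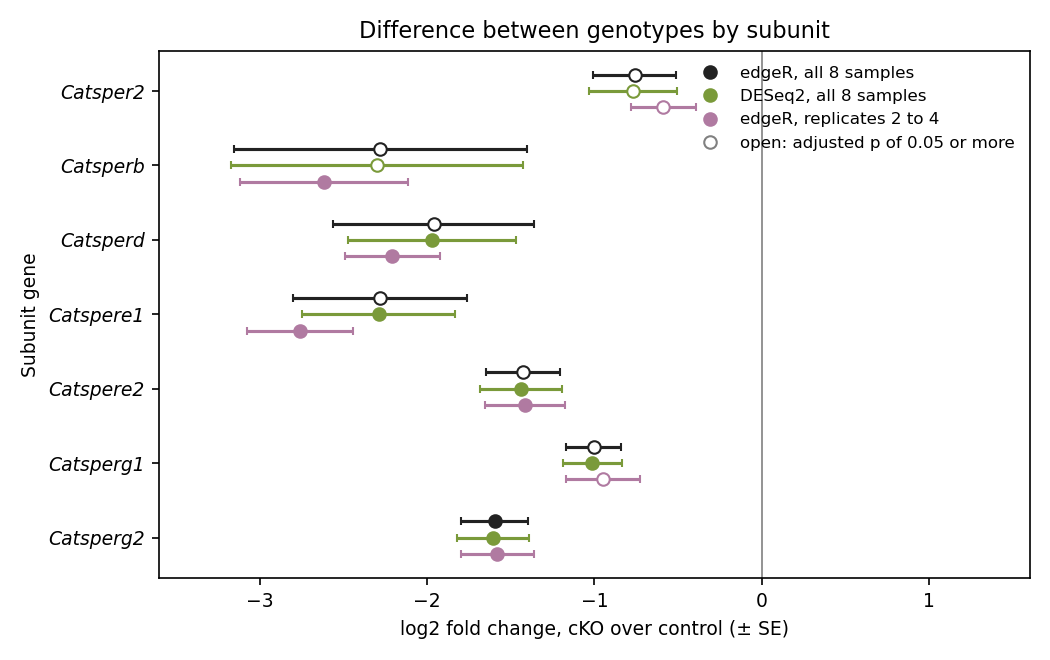
Log2 fold change, cKO over control, with its SE for each tested CatSper subunit gene, by edgeR on all 8 samples (black), DESeq2 on all 8 samples (green) and edgeR on replicates 2 to 4 (purple); filled points passed an adjusted p of 0.05. All points lie below 0, between -2.76 and -0.59, and only *Catsperg2* is filled in all 3 fits.

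The summed TPM of the 10 members weights each gene by its level, so the gamma pair counts most. *Catsperg1* and *Catsperg2* had means of 38.0 and 22.4 TPM in control, and 20.5 and 7.36 TPM in cKO. The sum was 135.2, 92.4, 130.3 and 77.4 TPM in the controls, and 48.2, 43.3, 43.6 and 50.1 TPM in the cKO samples. The lowest control sample was above the highest cKO sample, and the controls spread far more than the cKO samples. The mean was 108.8 ± 28.4 TPM in control and 46.3 ± 3.41 TPM in cKO (SD, n = 4), a 2.35-fold difference (exact permutation test, two-sided p = 0.0286, 0.0381 adjusted over 4 tests). Fewer cells that express these genes and less RNA of them per cell cannot be told apart in bulk RNA.

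The make-up of that sum differed between the genotypes. Pore-forming genes, in effect *Catsper2*, made up 16.8%, 15.8%, 13.6% and 13.8% of the member TPM in the controls, and 21.1%, 18.9%, 18.4% and 29.8% in the cKO samples. All cKO samples were above all controls, and cKO replicate 4 was the highest. The mean difference was 7.07 percentage points (exact permutation test, two-sided p = 0.0286, 0.0381 adjusted over 4 tests), and it was 21.5 points when the gamma pair was left out of the sum (exact permutation p = 0.0286). The overlap of *Catsper2* with exons of *Pdia3*, given above, limits this share too, and its part was not tested.

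The order of the subunit levels in TPM also shifted. In control, *Catsperg1* was above *Catsperg2*, *Catsperg2* above *Catsper2*, and *Catsper2* above *Catsperd* in 4 of 4 samples. Below these, *Catsperd* exceeded *Catspere2* and *Catspere2* exceeded *Catsperb* in 3 of 4 samples each, and *Catsperb* exceeded *Catspere1* in 1 of 4, so that these last genes had no fixed order. In cKO, *Catsperg1* was again first in 4 of 4 samples, *Catsper2* was above *Catsperg2* in 3 of 4, and *Catsperg2* was above *Catspere2* in 4 of 4. *Catspere2* exceeded *Catsperd* in 3 of 4, *Catsperd* exceeded *Catspere1* in 4 of 4, and *Catspere1* exceeded *Catsperb* in 3 of 4. These orders were described and not tested.

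Replicate 1 stood apart from its group in part of the members. In control, replicate 1 had 3.76 times the mean TPM of the other replicates for *Catsperb*, 2.21 times for *Catsperd* and 1.55 times for *Catspere1*, and in cKO the ratios were 4.44, 3.09 and 3.33. The ratios for *Catspere2* were 1.05 and 0.943, and those for *Catsperg1* 0.918 and 0.743. Beta, delta and epsilon 1 transcripts were thus highest in replicate 1 in both genotypes in TPM, while no other tested member was. *Catsper2* was highest in replicate 1 in control only. The 8 pachytene spermatocyte markers, among them *Ldhc* and *Piwil1*, summed to 2.62 times the mean of the other replicates in control replicate 1 and to 2.17 times in cKO replicate 1. Of these markers, only *Mybl1* was not highest in replicate 1 of both genotypes, with ratios of 1.36 in control and 0.821 in cKO.

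The same markers moved with the members between genotypes. Their summed TPM ran from 740.1 to 2467 in control and from 387.1 to 900.3 in cKO, which overlapped. All 8 had a log2 fold change below 0, but these ran widely, from -2.05 to -0.14 for *Mybl1* (median -1.45). EdgeR called 0 of 8 (3 at an unadjusted p under 0.05), while DESeq2 called 2 of 8. The genotypes were apart for *Piwil1*, a small RNA-binding protein of meiotic cells. Per 100 TPM of these markers, the members had 5.48, 10.1, 11.1 and 10.5 TPM in the controls, and 5.36, 10.4, 9.90 and 12.9 TPM in the cKO samples. On that scale the genotypes overlapped and replicate 1 was the lowest of each. The part of the spermatocytes' stage in the members' difference was not tested beyond these values.

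**Figure D4:**
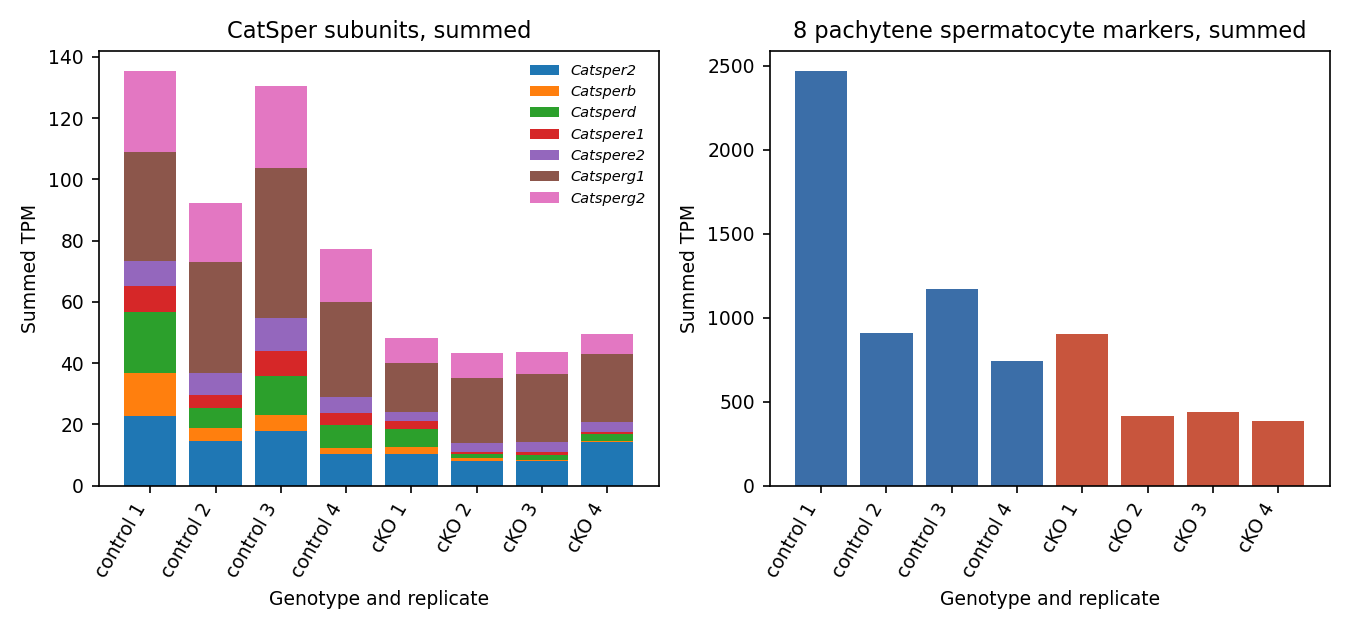
Summed TPM per sample of the CatSper subunits, stacked by gene (left; the genes that were not tested are left out), and of 8 pachytene spermatocyte markers (right), for control replicates 1 to 4 and cKO replicates 1 to 4. The CatSper sums are lower in every cKO sample than in any control, while the marker sums overlap between genotypes. Control replicate 1 is far above the other samples only for the markers.

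Other cell types were measured in the same libraries. The 7 spermatogonial markers summed to 354.5 to 440.0 TPM in control and 422.7 to 519.4 in cKO, with 7 of 7 above 0 in log2 fold change and 0 called. The 6 early spermatocyte markers summed to 616.8 to 1047 TPM in control and 637.4 to 871.2 in cKO. Sertoli cell markers, which germ cells lack, summed to 980.9 to 1230 TPM over 7 genes in control and 1026 to 1218 in cKO, so transcripts of a somatic cell type were present in both genotypes. Sums for Leydig cells were 35.2 to 87.7 against 48.3 to 71.9 TPM, for myoid cells 380.3 to 510.9 against 344.3 to 651.9, for macrophages 12.4 to 20.2 against 17.7 to 26.4, and for endothelium 4.88 to 9.58 against 4.32 to 9.94. EdgeR called 0 genes of these lists, and at an unadjusted p under 0.05 it had 2 spermatogonial, 1 early spermatocyte and 1 macrophage marker. The spermatid markers *Prm1* and *Tnp2* were at 0 in all libraries, as were *Catsper1* and *Catsper4*. The 8 spermatid markers summed to 13.4 to 48.5 TPM in control and 9.70 to 19.6 in cKO. Most of this was *Dbil5*, except in cKO replicate 4, where *Tnp1* had 6.06 TPM and *Dbil5* 5.33 TPM. *Mgat2* itself had 45.6, 21.7, 42.8 and 41.4 TPM in the controls and 23.0, 13.4, 24.9 and 10.9 TPM in the cKO samples, a log2 fold change of -1.05 ± 0.36 (SE, adjusted p = 0.47, edgeR), which DESeq2 called lower (-1.06, adjusted p = 0.0252). The genotypes overlapped, because control replicate 2 was below 2 of the cKO samples, and *Mgat2* transcripts remained in all cKO libraries.

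Genes of partner proteins of the channel were not called by edgeR or DESeq2 when all 8 samples were fitted by genotype alone. With the replicate number added as a block, edgeR called 4 of them. Of the 7 listed, *Tmem249* and *Tmem262* were at 0 in all libraries, and the 5 tested had log2 fold changes from -2.11 to -1.13 (median -1.75). EdgeR called 0 of 5 (0 at an unadjusted p under 0.05), and DESeq2 called 0 (2 at an unadjusted p under 0.05). *Catsperz*, which binds the calcium sensor of the channel, had 129.2, 19.6, 31.4 and 17.0 TPM in the controls and 33.1, 2.42, 7.55 and 2.79 TPM in the cKO samples. *C2cd6*, needed to bring the channel to the flagellum, had 44.6, 12.7, 18.9 and 10.9 against 14.8, 5.40, 7.05 and 4.31 TPM. *Slco6c1*, a transporter found in the complex, had 21.6, 3.66, 6.06 and 2.22 against 7.32, 0.65, 0.85 and 0.06 TPM. In each of these genes replicate 1 was the highest of both genotypes and cKO replicate 1 overlapped the controls. Without replicate 1, *Catsperz* (log2 fold change -2.46, adjusted p = 0.000749) and *Trim69* (-2.64, adjusted p = 0.000511) were called lower by edgeR, where replicate 1 of both genotypes was left out. The fold changes depended on these libraries. Without control replicate 1 alone the log2 fold change was -0.98 for *Catsperz*, -0.83 for *C2cd6*, -0.77 for *Slco6c1* and -0.59 for *Trim69*. Without cKO replicate 1 alone these were -3.57, -2.16, -4.14 and -3.79, and no such fit called any of these 4 genes (adjusted p of 0.274 to 0.942, edgeR). *Efcab9*, the calcium sensor, reached no more than 5.41 TPM.

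Genes that act with CatSper in sperm calcium entry, pH and capacitation were not called over all 8 samples by genotype alone either. With the replicate block, edgeR called 4 of them. Of 19 listed, 14 were tested. Their log2 fold changes lay between -2.13 and 0.44 (median -0.18), and edgeR and DESeq2 each called 0 (each had 2 at an unadjusted p under 0.05, all lower in cKO). Among the abundant ones, *Atp2a2*, the calcium pump of the endoplasmic reticulum, had 172 ± 14.7 TPM in control and 153 ± 6.25 in cKO, and *Prkaca*, the catalytic subunit of protein kinase A, had 96.3 ± 11.2 and 91.1 ± 5.10 TPM (SD, n = 4). In TPM, *Atp2a2* was apart between genotypes, with 163.4 to 193.7 in control and 145.5 to 160.6 in cKO, and so was *Slc26a8*, an anion transporter of sperm, with 14.9 to 26.7 and 7.93 to 10.7. Both overlapped in normalized CPM, and neither was called (adjusted p = 0.602 and 0.451, edgeR). Without replicate 1, *Slc9c1*, the sperm sodium-proton exchanger (log2 fold change -2.83), *Adcy10*, the soluble adenylyl cyclase (-1.20), and *Slc26a8* (-0.56) were called lower by edgeR. Without control replicate 1 alone these were -0.72, -0.40 and -0.43, and without cKO replicate 1 alone -4.21, -1.89 and -0.83, with adjusted p of 0.256 to 0.922 (edgeR).

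The start regions of the members were compared because 7 of them were lower together. RefSeq promoter windows of 300 bases, from 250 before to 50 after a start in GRCm38.p6, were found for 8 of the 10 genes, in 11 windows, but not for *Catsper1* and *Catsperg2*. A MYB-type motif, CAACNG on either strand, was present in 3 of the 11 windows (in *Catsperb*, *Catsperd* and *Catspere2*), against 11504 of all 32851 windows. An RFX-type motif, GTTGCC on either strand, was present in 1 window of *Catspere2*, where it overlaps the MYB-type motif, against 12.5% of all, and the cAMP response element TGACGTCA in 0 of 11, against 1.8% of all. The 2 matches in *Catsperb* lie 114 to 109 and 101 to 96 bases before the start. Upstream bases of the epsilon pair were 94.7% identical over 169 bases, with 9 differences. The RefSeq sequences were placed in GRCm39 by exact match, at chr1:177635816-177635984 and chr1:177818783-177818951 for the epsilon pair and at chr12:101370798-101370856 for *Catsperb*, all on the forward strand and outside annotated exons of these genes, the *Catspere2* stretch within an intron of a longer transcript. Capitals mark the bases that differ between *Catspere1* and *Catspere2*, and the motif matches in *Catsperb*.
Catspere1: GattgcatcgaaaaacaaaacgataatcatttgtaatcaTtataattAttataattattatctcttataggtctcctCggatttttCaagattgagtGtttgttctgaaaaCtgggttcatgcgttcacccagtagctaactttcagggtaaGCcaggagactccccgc
Catspere2: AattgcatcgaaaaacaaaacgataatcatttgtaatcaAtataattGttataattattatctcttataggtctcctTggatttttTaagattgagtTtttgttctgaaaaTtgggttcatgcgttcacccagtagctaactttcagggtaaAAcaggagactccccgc
Catsperb: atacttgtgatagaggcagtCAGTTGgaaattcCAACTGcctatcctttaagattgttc
A match describes letters in these windows and nothing about binding, which was not measured.

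Genes outside the list were ranked by how near their pattern over the 8 samples lay to the mean pattern of the tested members. The measure was the root mean square difference of log2 CPM centred on the gene's mean, over 14221 genes with a mean TPM of at least 2. The nearest were *Pnmal1* and *Ptchd3* (0.12 each), *Cfap65* (0.15), *Gm14244* (0.16) and *Gm21269* (0.18), while the members themselves lay 0.22 (*Catsperg2*) to 0.78 (*Catsperb*) from their mean. *Ptchd3*, a patched-domain protein of male germ cells, had 47.5, 29.5, 43.0 and 26.4 TPM in the controls and 18.3, 10.9, 10.4 and 9.77 TPM in the cKO samples. *Cfap65*, a protein of the flagellum, had 47.0, 25.2, 37.9 and 22.8 against 14.6, 6.86, 8.22 and 9.51 TPM. Both were apart between genotypes, with adjusted p of 0.229 and 0.297 (edgeR). They were picked for nearness to a pattern that itself separates the genotypes, so their being apart largely follows from the choice. The small distances of the nearest genes also come from picking them out of 14221, while the members were not picked by distance.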

How the data were processed

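Germ cells of 8 males at 15 days, 4 control and 4 cKO, were sequenced as polyA libraries without strand. The authors aligned paired reads of 150 bases to GRCm39 with STAR 2.7.9a and deposited expected counts, estimated per gene with RSEM 1.3.3, so that a read matching several genes is split among them. The deposited TPM values are RSEM's estimates for the same genes, scaled within a library for length and depth. Here expected counts were rounded (6.4% of values were not whole), and genes that reached a TPM of 1 in any sample were tested with edgeR 4.0.16 in R 4.3.3 (TMM, robust quasi-likelihood F-test, Benjamini-Hochberg over all genes tested, threshold 0.05, called where it passed). The study used DESeq2 1.38.3, and DESeq2 1.42.0 was an alternative here, as were limma 3.58.1 with voom or log2(TPM + 1), other normalizations and filters, the replicate block, and leaving out each sample. Summed TPM and shares were compared with scipy 1.17.1 by exact permutation over the 70 assignments of 4 and 4 samples. Annotation is GENCODE for GRCm39, and the identifiers of the 10 members matched the deposited ones. The gene models used by the authors were those of Ensembl.

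Each library is 1 mouse, so that p-values measure the spread between mice. The 3-count limit was worth 0.189 to 0.238 CPM at these depths. The CPM given are scaled by TMM factors. The members, the lists of partner, calcium and cell type genes and the tests were chosen with earlier results of these data known. Genes named are the 10 members, *Mgat2*, of the partner and calcium lists those that were called or apart in every sample and the 3 with the highest TPM, and the 5 with the nearest pattern. *Efcab9*, *Trim69*, *Slc9c1*, *Adcy10* and *Slc26a8* and the markers named were chosen after their values were seen. *Slc9c2* was not used here. The values of 1 gene that this rule names are not reported here.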

Additional observations from a re-analysis of the deposited data

Results flagged for a closer look

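A sample lay far from the 3 others of its genotype in 12 of 64 sets of 4 values, with most of the set's range lying between it and its nearest neighbour. For independent values from a normal distribution this happens in about 1 set in 20. The sets here hold skewed values and counts near 0 and share the same libraries. That rate may therefore not apply, and nothing is concluded about chance. Of the 12, 9 were in replicate 1. *Catsperz* had 129.2 TPM in control replicate 1 and 33.1 TPM in cKO replicate 1, against at most 31.4 and 7.55 TPM in the others. *Slc9c1* had 11.0 and 2.89 TPM in the same samples, against at most 2.39 and 0.28 TPM. In cKO replicate 1, *Slco6c1* was at 7.32 TPM (at most 0.85 in the others), *Trim69* at 7.08 TPM (at most 1.03), and *Pkd2*, a cation channel, low at 41.5 TPM (at least 59.99). In control replicate 1, *Atp2a2* was high at 193.7 TPM (at most 165.3), and the *Catsperg2* share of the gamma pair was 42.6% (at most 35.6%). *Catsper3* stood out in replicate 4 of both genotypes, with 2 counts in control and 7 in cKO (at most 0 and 1). *Slc26a8* was low in cKO replicate 4, at 7.93 TPM (at least 10.4).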

How the results depend on the processing

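Each tested member was lower in cKO under every alternative run, and the number called depended on the tool and filter. DESeq2 called 302 genes and 5 members, against 8 and 1 by edgeR with TMM. EdgeR called 18 genes and 2 members with upper-quartile factors, 17 and 2 with library totals alone, 35 and 3 without the TPM filter, and 0 and 0 with filterByExpr (1665 genes at an unadjusted p under 0.05). Limma called 0 genes and 0 members with voom, log2(TPM + 1) or log2(TPM + 0.1), with 2030, 1816 and 1892 genes at an unadjusted p under 0.05. Leaving out 1 sample gave 0 to 32 genes and 0 to 3 members. Replicates 2 to 4 alone, chosen after seeing the data, gave 845 genes, 5 members, 2 partner genes and 3 calcium genes. With a replicate block, 1464 genes, 6 members, 4 partner genes and 4 calcium genes were called. The numbers come from the titles, and across genes a control and a cKO sample with the same number, each taken relative to its genotype's mean, correlated at 0.42, 0.086, 0.02 and 0.129 for numbers 1 to 4, so that they were not taken as pairs. Without 1 sample the summed TPM differed by -73.0 to -53.7, the *Catsperg2* share by -12.5 to -8.55 points and the pore-forming share by 4.48 to 8.29 points, each at an exact permutation p of 0.0571, the smallest that 3 against 4 samples allow. On replicates 2 to 4 these were -54.4, -10.7 and 7.99 (exact permutation p = 0.1, again the smallest). Over all 8 samples, the *Catsperg2* share on expected counts differed by -9.21 points, with overlap between genotypes (exact permutation p = 0.114). Signs turned for some genes near 0. The log2 fold change of *Efcab9* was 0.04 and of *Abhd2* 0.01 on replicates 2 to 4. Upper-quartile factors gave 0.01 for *Prkaca* and for *Pkd2*, which was 0.01 on replicates 2 to 4, and limma on TPM gave -0.07 for *Itpr1*. Leaving out 1 sample gave -0.26 to 0.19 for *Hvcn1*, -0.06 to 0.02 for *Abhd2*, -0.09 to 0.02 for *Prkaca*, -0.1 to 0.11 for *Pkd2* and -0.03 to 0.14 for *Itpr1*. The cause of these changes was not tested. Counts as low as 10 for *Catsperb*, 21 for *Catsperd* and 18 for *Catspere1* in a cKO library limit these genes.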
